A study of Mus musculus with 7 samples.

Results

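The 10 genes followed here were Col1a1, Col1a2, Col3a1, Acta2, Tgfb1, Lrat, Pdgfrb, Des, Lox and Reln. They mark hepatic stellate cells, make or cross-link scar matrix in liver or, for Tgfb1, encode a cytokine that drives its making. A region of accessible chromatin was assigned to a gene where it overlapped the gene body or the 10 kb on either side of it in the GENCODE M21 annotation. By that rule 15 of the 55680 regions in the count table belonged to 5 of the 10 genes. Reln and Tgfb1 had 5 regions each, Col1a1 had 3, and Lrat and Pdgfrb had 1 each. Col1a2, Col3a1, Acta2, Des and Lox had none.

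Stellate cells lie between the hepatocytes and the sinusoidal endothelium, and in healthy liver they are quiescent and store vitamin A as retinyl esters. On injury, signals that include TGF-beta and PDGF turn them into contractile myofibroblasts that lose their retinoid droplets and secrete fibrillar collagen. An accessible promoter is the usual mark of a gene that can be transcribed, and ATAC-seq, which counts where a transposase can cut chromatin, reads it over all nuclei of the sample. At a gene used mainly by stellate cells the signal depends on how many stellate nuclei are in it.

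The measurements came from whole liver of C57BL/6N mice that the study's methods describe as male, fed a standard diet and free of signs of fibrosis. There were 3 young samples from mice of 3 months and 4 aged samples from mice of 18 months, with no treatment in either group. The design text states that the 4 aged samples came from 3 animals, of which 1 was sampled in 2 liver lobules, and the labels do not say which samples those are. The study's methods instead count the 4 as separate biological replicates, and the labels do not settle this. The 7 libraries held from 4474652 to 25461110 counts in regions, with a median of 35 to 241 counts per region. All 10 hepatocyte marker genes had a promoter region, against 1 of 10 for Kupffer cells and 0 of 10 for lymphocytes. Levels are given as counts per 1000000 (CPM) after TMM scaling, and changes as the log2 fold change of aged over young from edgeR's quasi-likelihood test, adjusted by Benjamini-Hochberg over all 55680 regions.

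A promoter region was a region within 200 bp of a transcription start of the gene. Only 4 of the 10 genes had one (Reln, Tgfb1, Lrat and Col1a1), whereas 59.4% of the 21951 protein-coding genes did. The 250 bases before the RefSeq start (build GRCm38.p6) are printed below for the Reln, Tgfb1 and Lrat promoters, which lie inside accessible regions, and for Col3a1, which had no region and was chosen as the contrast after the values were seen. Capitals mark the GC box (GGGCGG) and the CCAAT box (CCAAT) on either strand, whose letters can overlap where CCGCCC runs into CCAAT. The stretches lie at chr5:22344706-22344955 (minus strand), chr7:25686752-25687001 (plus strand), chr3:82903975-82904224 (minus strand) and chr1:45311288-45311537 (plus strand).
Reln: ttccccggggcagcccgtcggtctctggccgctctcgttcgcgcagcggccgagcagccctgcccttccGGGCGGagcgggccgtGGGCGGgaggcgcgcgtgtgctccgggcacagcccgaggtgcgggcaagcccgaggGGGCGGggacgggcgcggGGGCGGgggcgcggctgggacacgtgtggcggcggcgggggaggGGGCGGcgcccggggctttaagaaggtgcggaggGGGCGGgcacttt
Tgfb1: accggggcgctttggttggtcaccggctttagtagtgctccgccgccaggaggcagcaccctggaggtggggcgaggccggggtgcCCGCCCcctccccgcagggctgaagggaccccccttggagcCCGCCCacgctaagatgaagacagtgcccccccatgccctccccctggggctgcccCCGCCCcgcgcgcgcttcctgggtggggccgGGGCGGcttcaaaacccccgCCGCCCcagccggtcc
Lrat: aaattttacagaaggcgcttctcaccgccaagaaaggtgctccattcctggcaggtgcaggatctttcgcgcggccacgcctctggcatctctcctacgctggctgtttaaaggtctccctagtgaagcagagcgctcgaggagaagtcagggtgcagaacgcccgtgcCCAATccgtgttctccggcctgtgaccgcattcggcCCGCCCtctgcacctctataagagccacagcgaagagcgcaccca
Col3a1: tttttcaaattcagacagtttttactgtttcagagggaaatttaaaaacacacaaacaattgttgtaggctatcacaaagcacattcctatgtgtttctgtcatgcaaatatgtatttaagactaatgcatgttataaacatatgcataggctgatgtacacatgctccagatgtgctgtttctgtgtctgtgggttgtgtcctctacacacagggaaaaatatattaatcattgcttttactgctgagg

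The printed stretches differed widely in base composition. Reln held 37 CpG dinucleotides, 80% G and C, and 6 GC boxes. Tgfb1 held 21 CpG, 75.2% G and C, and 5 GC boxes. Lrat held 18 CpG, 59.2% G and C, 1 GC box and 1 CCAAT box. Col3a1 held 0 CpG at 35.2% G and C, with neither box. Over the 32851 RefSeq promoters of the same length the median was 6 CpG and 52.4% G and C, and 32.7% held a GC box and 33.8% a CCAAT box. The 3 stretches printed from accessible promoters were richer in CpG than the median promoter, and the Col3a1 stretch was poorer. Genes without a region did not all resemble Col3a1, as the same stretch of Col1a2 held 11 CpG at 62% G and C, that of Des 10 CpG at 67.2%, both above the median, and that of Acta2 4 CpG at 53.6%. These counts describe the letters in the windows only.

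None of the 15 regions passed an adjusted p of 0.05 between ages with edgeR. The background was 5.74% of all regions (3198 of 55680, of which 1360 were higher and 1838 lower in aged liver). At an unadjusted p under 0.05 there were 2 of the 15 regions and 13699 of all regions. DESeq2 and limma voom also called 0 of the 15. Total-count scaling, GC offsets, a replicate block and the sum of aged 1 and 4 each called 1. The fitted change was below 0 in 12 regions and above 0 in 3, with a median of -0.18 against -0.035 over all regions, of which 46.6% were above 0. With offsets fitted on abundance 7 of the 15 were below 0 and their median turned to 0.075. Every aged sample lay below every young sample in 3 regions (20% of 15, against 11.6% of all regions) and above every young sample in 1 (6.67%, against 10.2%). In the other 11 regions the age groups overlapped. In whole tissue, fewer nuclei of a cell type and less accessibility per nucleus cannot be told apart.

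**Figure D1:**
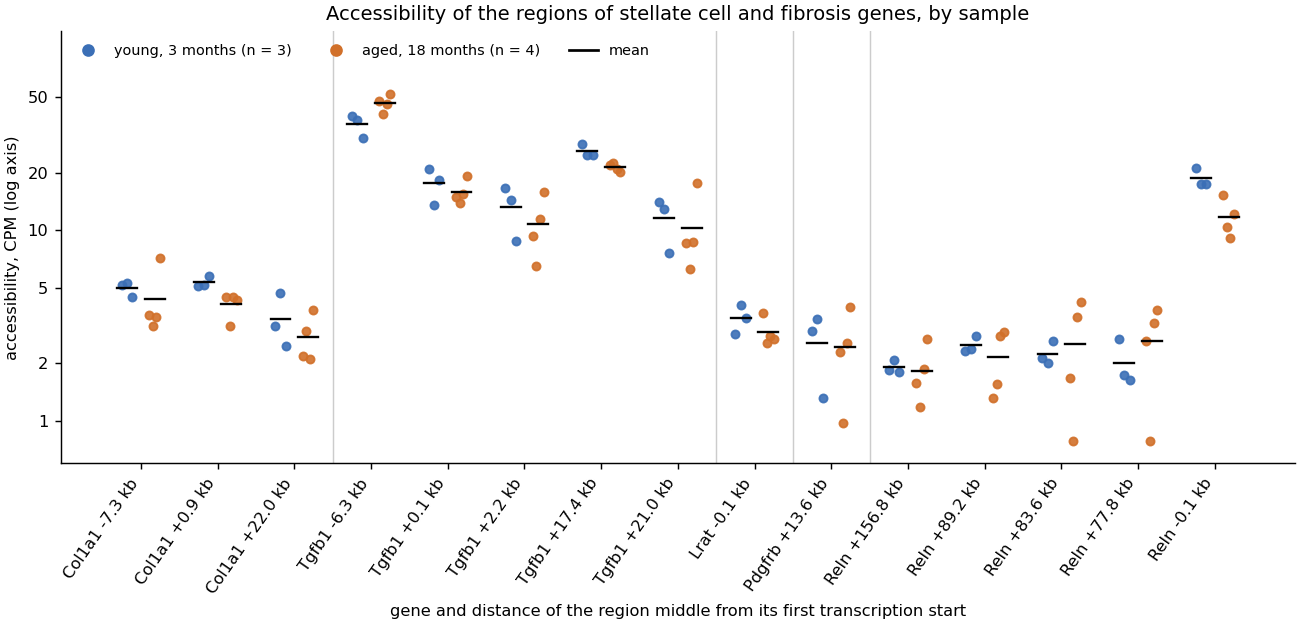
Accessibility of the 15 regions in each library, in CPM on a log axis, with black bars for the group means. Regions are named by gene and by the distance of their middle from the gene's first start; only the Reln promoter, the regions 0.9 kb after the Col1a1 start and 17.4 kb after the Tgfb1 start, and the region 6.3 kb before Tgfb1 show no overlap between young and aged samples.

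Reln encodes reelin, a large secreted glycoprotein that in liver is a known marker of stellate cells. Its promoter region (chr5:22344073-22345581, 1509 bp, 71.0% G and C) covers the first exon and its flanks, the printed stretch included. The young samples measured 21.1, 17.5 and 17.4 CPM, and the aged samples 15.3, 10.4, 9.10 and 12.1 CPM. All 4 aged values lay below all 3 young values, and the means were 18.7 ± 2.10 (SD, n = 3) and 11.7 ± 2.67 (SD, n = 4). The log2 fold change was -0.64 (SE 0.19, 95% interval -1.05 to -0.24) with an adjusted p of 0.0586 by edgeR. Reln was thus the nearest of the 10 genes to a call without reaching it. Its change stayed below 0 in 21 of 21 alternative analyses, from -0.81 to -0.52, and its adjusted p ran from 0.032 to 0.21, past 0.05 in 3 of them.

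The other 4 Reln regions are weak sites inside introns of this gene of 460249 bp, from 77.8 kb to 157 kb after its start. Their samples held 4 to 63 counts each and 0.785 to 4.20 CPM. The intron region nearest to the promoter (chr5:22266674-22267111) measured 2.68, 1.74 and 1.64 CPM in young and 2.64, 0.785, 3.27 and 3.82 CPM in aged samples, so the groups overlapped. Its log2 fold change of 0.40 had an interval of -0.47 to 1.28, and those of the other 3 intron regions were 0.20, -0.23 and -0.07. The signs at the intron sites were thus mixed, all 4 intervals contained 0, and 3 of the 4 also contained the promoter's change. The difference from the promoter was not tested. Summed over all 5 regions, Reln changed by -0.45 (interval -0.78 to -0.11, adjusted p = 0.0904 over 16231 protein-coding genes with a region, edgeR). In that test of sums 6.02% of genes were called, and 0 of the 5 genes with regions here. The Reln sum was called with a replicate block, with aged 2 and 4 summed and without aged 4.

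Tgfb1 encodes TGF-beta 1, the main cytokine that drives stellate cells to make collagen, and it is made by many liver cell types besides. Its main promoter region (chr7:25686733-25687541, 809 bp) covers the start and the first exon. Young samples measured 20.9, 13.6 and 18.3 CPM and aged samples 14.8, 13.9, 15.4 and 19.2 CPM, which overlapped. The log2 fold change was -0.13 with an interval of -0.53 to 0.26 (adjusted p = 0.702, edgeR), which spans 0.693 to 1.20 times the young level. A second region at starts of shorter Tgfb1 transcripts, 2.2 kb further on (chr7:25688819-25689670), also overlapped between ages, at 8.71 to 16.7 CPM in young and 6.47 to 15.9 CPM in aged samples, with a log2 fold change of -0.31 (interval -0.89 to 0.28).

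Among the sites of Tgfb1 itself, the ages separated at the 3′ end. The region over the 3′ untranslated exon (chr7:25703724-25705022) measured 28.1, 24.7 and 24.8 CPM in young and 21.9, 22.6, 20.8 and 20.1 CPM in aged samples. Every aged sample was lower, and the means were 25.9 ± 1.96 and 21.3 ± 1.09 CPM, but the log2 fold change of -0.28 (interval -0.56 to 0.002) had an adjusted p of 0.206 by edgeR. The last region, at 20979 bp from the start and beyond the gene's end (chr7:25707663-25708300), overlapped between the ages, at -0.17. Summed over its 5 regions Tgfb1 changed by -0.07 (adjusted p = 0.719).

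The strongest region near Tgfb1 belongs to another gene. It lies 6.3 kb before the Tgfb1 start (chr7:25680206-25681293) on the promoter of B9d2, a gene for a protein of the ciliary transition zone, and measured 39.5, 37.8 and 30.4 CPM in young against 47.4, 40.4, 45.5 and 51.8 CPM in aged samples. All aged values were above all young values, with means of 35.9 ± 4.84 and 46.3 ± 4.72 CPM. Its log2 fold change of 0.36 (SE 0.13, interval 0.08 to 0.64) had an adjusted p of 0.104 by edgeR, and 0.012 at a log2 fold change of 0.52 when the libraries were scaled along GC content. This was the only one of the 15 regions with all aged values higher, and it is not at a stellate cell gene. It is included in the Tgfb1 sum.

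**Figure D2:**
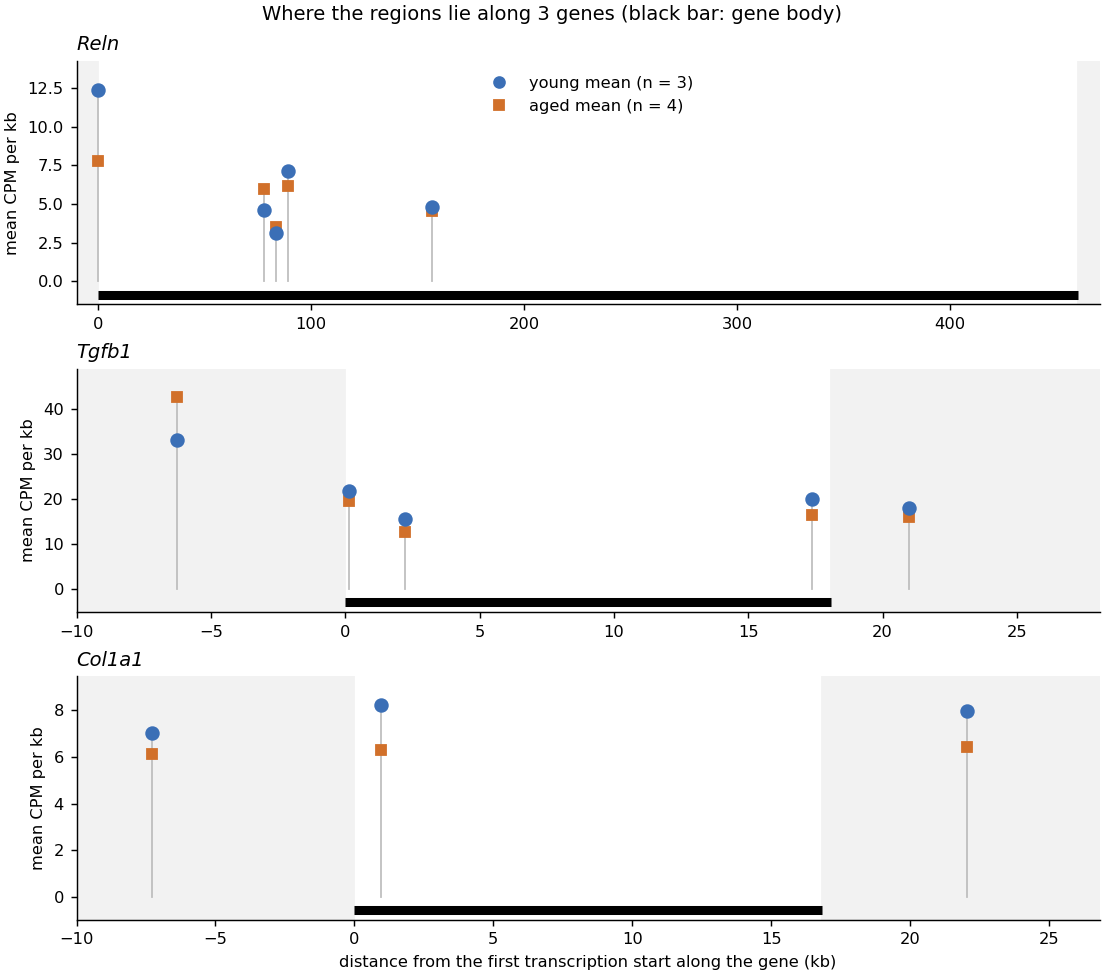
Mean CPM per kb of region (vertical axis) of young and aged samples against distance from the gene's first start (horizontal axis, kb) for Reln, Tgfb1 and Col1a1, with the gene body as a black bar and the 10 kb flanks in grey. The Reln promoter stands above its 4 intron sites in young samples, while the strongest site of the Tgfb1 window is the one 6.3 kb before its start.

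Of the 3 fibrillar collagen genes among the 10, whose products form the bulk of scar matrix, only Col1a1 had regions. Its nearest site to a start (chr11:94936843-94937491, 649 bp) lies in an intron 943 bp after the main start at its middle and 195 bp from the start of a shorter transcript. Young samples measured 5.09, 5.18 and 5.75 CPM and aged samples 4.48, 3.14, 4.44 and 4.33 CPM. Each aged sample was below each young one, with means of 5.34 ± 0.361 and 4.10 ± 0.641 CPM. The log2 fold change was -0.36 (SE 0.24, interval -0.88 to 0.16, adjusted p = 0.378 by edgeR), on 16 to 137 counts per sample. The upstream site at -7286 bp from the start had a log2 fold change of -0.18, and the downstream site at 22046 bp one of -0.37 (interval -1.05 to 0.32, and -0.59 to -0.033 with single libraries left out), both with overlapping groups. In the upstream site (chr11:94928585-94929291) the young samples held 5.18, 5.25 and 4.44 CPM and aged samples 1 to 3 held 3.60, 3.14 and 3.50 CPM, whereas aged 4 held 7.13 CPM, above all the others. Its log2 fold change was -0.54 without aged 4 (adjusted p = 0.19), -0.063 without aged 2 and -0.070 without aged 1.

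Col1a2, which encodes the second chain of type I collagen, had no region within 58551 bp, and the nearest one was the promoter of Casd1. Col3a1, the type III collagen gene, had none within 54884 bp. Lox, the lysyl oxidase that cross-links collagen, had none within 36223 bp, Acta2, the smooth muscle actin of myofibroblasts, none within 27430 bp, and Des, the intermediate filament desmin of stellate and muscle cells, none within 14775 bp. The table used here holds peaks found in at least 2 libraries regardless of age, so these genes have no value per sample, which does not show that their promoters are closed in stellate cells.

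Lrat encodes lecithin retinol acyltransferase, which makes the retinyl esters that quiescent stellate cells store. Its promoter region (chr3:82903737-82904438), which it shares with the antisense gene Rbm46os, measured 2.87, 4.04 and 3.45 CPM in young and 3.69, 2.55, 2.80 and 2.67 CPM in aged samples. The groups overlapped, and the log2 fold change of -0.23 had an interval of -0.83 to 0.37 (adjusted p = 0.658, edgeR) on 12 to 107 counts per sample. Pdgfrb, the receptor through which PDGF drives stellate cells to divide, had no promoter region, only an intron site 13.6 kb into the gene (chr18:61058451-61058977). It measured 2.96, 3.44 and 1.32 CPM in young and 2.28, 0.981, 2.57 and 3.95 CPM in aged samples on 5 to 91 counts, with overlapping groups. Its log2 fold change was -0.13 with an interval of -0.99 to 0.73 (adjusted p = 0.877), which spans 0.504 to 1.66 times the young level.

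**Figure D3:**
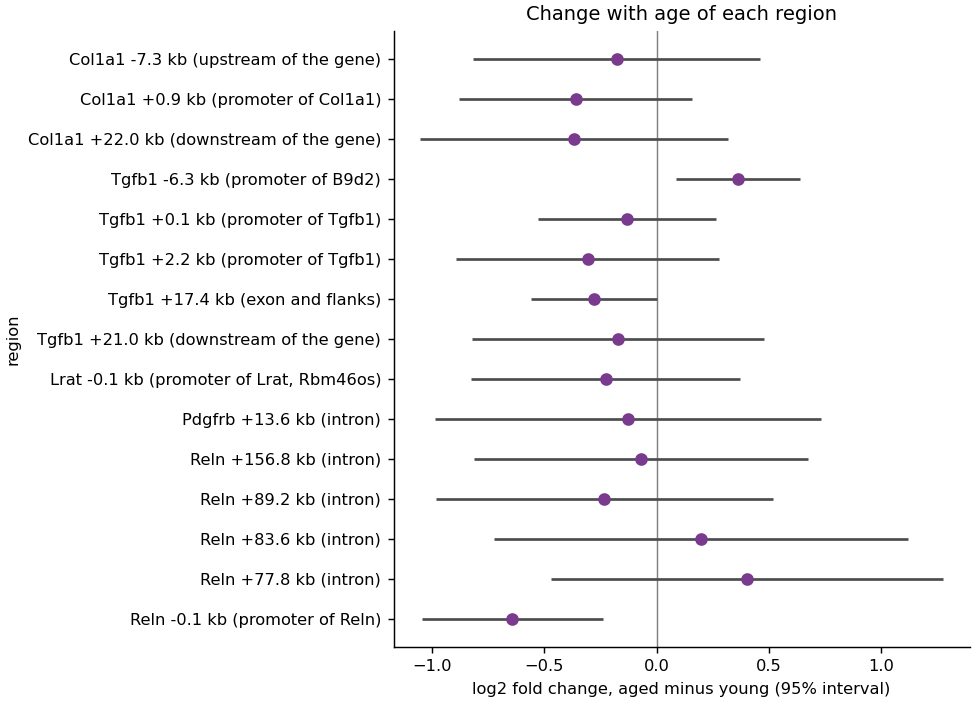
Log2 fold change of aged over young (points) with 95% intervals (lines) for the 15 regions, each named by gene, distance of its middle from the first start, and place. The intervals of 13 regions contain 0; that of the Reln promoter lies below 0 and that of the B9d2 promoter near Tgfb1 above it, neither with an adjusted p under 0.05.

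Per kb of region, the Tgfb1 promoter stood at the 48.9th percentile of the 15422 promoter regions, Reln at the 20.9th, the Col1a1 site at the 12.6th and Lrat at the 2.67th, with the B9d2 promoter at the 82.2nd. In 8 of the 15 regions both age means were under 5 CPM, against a median of 8.79 CPM over all regions and 27.1 CPM over promoter regions. The 95% half-intervals of the 15 log2 fold changes ran from 0.28 to 0.92, all wider than the median change of -0.18.

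The median length of the 15 regions was 702 bp (349 to 1509 bp) and the median G and C content 58.4%, against 869 bp and 49.4% over all regions. In the 300 bp around the region's middle, on both strands, the TEAD motif GGAATG was in 5 of the 15 (33.3%, against 14.8% of all regions), the AP-1 motif TGANTCA in 2 (13.3%, against 9.22%), the LIM homeobox motif TAATTA in 2 (13.3%, against 5.13%) and the CArG box in 0 (against 1.32%). With 15 regions these shares are descriptions only. At 10 to 50 kb from the 10 genes lay 25 further regions, of which 0 were called and the smallest adjusted p was 0.0891.

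Beyond the 10 genes, 9 lists of stellate cell and fibrosis genes covered 693 regions, of which 14 were higher and 22 lower in aged liver (5.19% called, against 5.74% of all regions). Their median log2 fold change was -0.075, and 0.043 with GC offsets. In 7 of the 9 lists the sign of the median turned under at least 1 of 4 other scalings, collagen processing and matrix breakdown being the exceptions. The balance of calls turned as well, with 61 higher and 21 lower with GC offsets, 24 and 23 with DESeq2, and 5 and 35 with total counts. GC offsets gave 12 higher and 2 lower in the TGF-beta list, 9 and 3 in the myofibroblast list, 10 and 3 in the retinoid list and 7 and 3 in the transcription factor list, whereas the fit without aged 4 gave 2 and 7 in the TGF-beta list and 1 and 9 in the transcription factor list. The counts by list given next are those of TMM scaling and all 7 libraries. Calls were made in 8 of the 9 lists.

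In the quiescent stellate cell list, 1 of 48 regions at 13 of the 19 genes rose. It was a promoter region of Pparg (chr6:115420858-115422244), a nuclear receptor known to hold stellate cells quiescent. The strongest Pparg promoter region was not called. The called site rose from 9.997, 13.3 and 10.2 CPM to 19.9, 25.3, 26.1 and 13.9 CPM (log2 fold change 0.89, adjusted p = 0.0318). The median log2 fold change of the list was 0.0041, and ran from -0.11 without aged 4 to 0.052 without young 1. Among the 96 regions of retinoid handling genes 1 rose and 3 fell. A promoter region of Aldh1a2, which makes retinoic acid, fell from a mean of 7.55 ± 0.926 CPM to 4.01 ± 0.640 CPM (log2 fold change -0.91, adjusted p = 0.0373), and that of Cyp26a1, which degrades it, rose from 50.2 ± 14.5 to 80.7 ± 12.2 CPM (0.68, adjusted p = 0.0427). The other 2 that fell were a site beside Rxra, a retinoid receptor (-0.90), and the promoter of Gjd3 near Rara (-0.92).

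Among these 9 lists, collagen and matrix had the highest share of calls, 17.8% of its 73 regions, against 5.74% of all regions. There were 5 higher and 8 lower at a median of -0.02, several of them at the Col4a1 and Col4a2 locus. Abundance offsets left 1 higher and 2 lower, and the fit without young 1 left 1 higher and 0 lower. Without aged 4 the median was -0.32. The promoter shared by Col4a1 and Col4a2, the basement membrane collagens (chr8:11311768-11313627), fell from 29.3, 16.0 and 21.2 CPM to 8.17, 6.67, 7.70 and 14.0 CPM (log2 fold change -1.25, adjusted p = 0.018). A site beside Sparc, a collagen-binding matrix protein, fell too (-1.40, adjusted p = 0.0243), on 15, 5, 5 and 9 counts in the aged samples. In the other direction, a site over the 3′ untranslated exon of Col12a1, a collagen that decorates fibrils, rose from 9.72, 16.7 and 9.70 CPM to 26.9, 28.8, 38.3 and 32.5 CPM (1.34, adjusted p = 0.00765), and an intron site of Vcan (0.76) rose. At Fn1, the fibronectin gene, an intron site rose (0.42) and a promoter region fell (chr1:71608849-71609512, -1.31, adjusted p = 0.0358), the latter named after its values were seen. The strongest Fn1 promoter region was not called. The changes at matrix genes therefore ran both ways. Of the 46 regions of collagen processing genes 0 were called, at a median of -0.22. That median ran from -0.24 without young 3 to -0.10 without young 1, and was -0.050 with abundance offsets. GC offsets gave 5 higher and 0 lower in this list, and total counts 0 and 2.

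In the TGF-beta pathway list 3 of 152 regions rose and 1 fell, at a median of -0.08. An intron site of Smad6, an inhibitor of the pathway, rose by 1.10 on the log2 scale (adjusted p = 0.0289), and an intron site of the integrin gene Itgb5 rose by 1.42 (adjusted p = 0.0308). A promoter region of Eng, the co-receptor endoglin, fell from 5.67 ± 0.900 to 1.82 ± 0.808 CPM (-1.54, adjusted p = 0.0192). It held 33, 5, 8 and 12 counts in the aged samples, and the strongest Eng promoter region was not called. The Itgb5 site has near-identical copies elsewhere in the genome, so its reads are uncertain. In the PDGF list 1 of 73 regions rose, the promoter of the adaptor gene Pik3r1 (0.38), and 1 fell, an intron site of the ligand gene Pdgfc (-1.87). The Pdgfc site held only 8, 1, 1 and 6 counts in the aged samples. In the matrix breakdown list 1 of 29 fell, a site beside Plg, the plasminogen gene (-0.77).

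Contractile genes and factors of mechanical signalling also went both ways. Of 84 regions of the myofibroblast contraction list 2 rose, promoters of Cald1 (0.48) and Vcl (0.42), which encode the actin-binding proteins caldesmon and vinculin, and 5 fell, intron sites of Myh9 (-1.40) and Vcl (-1.09) and the promoter of Gcn1l1 near Pxn (-0.70) among them. Vcl thus held calls of both signs, its promoter higher and 2 intron sites lower. Fn1 did so too (1 higher and 1 lower). The window of Col4a2 held 1 higher and 2 lower, but the higher one lay in the flank outside the gene body. Of 92 regions of transcription factors tied to stellate cell activation 1 rose, an intron site of Srf (0.81), and 3 fell, intron sites of Ets1 (-1.29), Runx1 (-1.26) and Wwtr1 (-1.16).

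Most of these list calls depended on single libraries or on the scaling. Of 32 regions taken as the strongest calls of all lists, those of the marker lists included and the Fn1 promoter left out, the number still called was 1 without young 1, 5 without young 2, 22 without young 3, 6 without aged 1, 25 without aged 2, 5 without aged 3 and 30 without aged 4, while calls over all regions went from 3198 to 188, 446, 2651, 402, 2898, 651 and 4230. The Col12a1 site was the only 1 of them to pass in all 7 of these fits. All 32 kept their direction in every alternative that gave a value. Their choice as the strongest calls of these same libraries favours that, so it is no independent check. Of the 32, 0 shrank by over 1.5 times in these 7 fits or in any other alternative except offsets fitted on abundance. With those offsets 10 did, and 5 of the 32 stayed called. Pik3r1 went from 0.38 to 0.047 (adjusted p = 0.857), the Vcl promoter from 0.42 to 0.090 (0.667) and Pdgfc from -1.87 to -0.82 (0.391). Total-count scaling left 23 called and GC offsets left 32.

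Markers of the other liver cells stood as follows beside these results. Hepatocyte markers had 90 regions with 6 higher and 1 lower (median 0.16, and from 0.072 without young 1 to 0.28 without young 2, with 0 called without young 1), and their promoters, taken as the strongest region of each gene, summed to 696 to 777 CPM in young and 871 to 981 CPM in aged samples, while the median change over all 15422 promoter regions was 0.094. Sinusoidal endothelial markers had 53 regions with 0 called at a median of -0.30 (6 lower and a median of -0.40 without aged 4, and a median of -0.19 without aged 1), and a summed promoter level of 84.4 to 96.4 CPM in young and 67.5 to 110 CPM in aged samples. With abundance offsets these medians were 0.030 for hepatocyte and -0.087 for sinusoidal endothelial markers. Kupffer cell markers had 9 regions with 1 lower, at the promoter of Sox15 near Cd68 (median -0.66), and a single promoter region at 2.22 to 2.65 and 0.588 to 2.80 CPM. Cholangiocyte markers had 20 regions with 1 lower, the markers of smooth muscle, portal fibroblast and mesothelium had 9 with 0 called, and lymphocyte markers had 4, with 1 higher at the promoter of Tmprss6 and no promoter region of their own. The part of a shift in cell make-up in the results at Reln and the other genes was not tested.

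**Figure D4:**
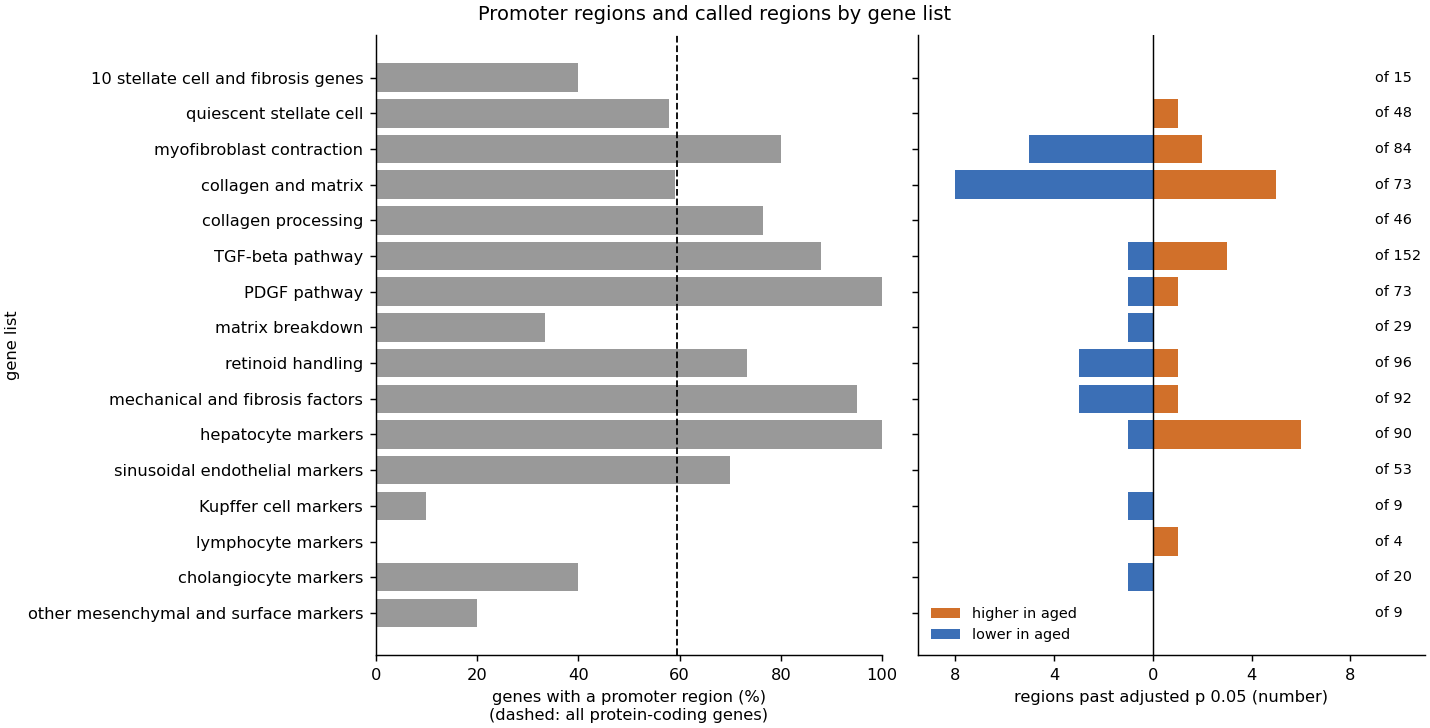
Left, share of each list's genes with a promoter region in percent, with a dashed line at 59.4% for all protein-coding genes; the 10 genes reach 40%, hepatocyte markers 100% and lymphocyte markers 0%. Right, number of regions called higher (orange) and lower (blue) in aged liver, with the number tested at the side; collagen and matrix genes have 5 higher and 8 lower of 73, and the 10 genes have none.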

How the data were processed

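Whole liver of young and aged mice was profiled by ATAC-seq. According to the methods and the submitters' processing notes, the authors trimmed adapters (cutadapt 1.13), aligned to GRCm38 (Bowtie2 2.4.1), kept reads of good mapping quality without duplicates or mitochondrial reads, called peaks in each library (MACS2 2.2.7), merged peaks present in at least 2 libraries into consensus regions, and deposited raw read counts per region (featureCounts). No other unit was used.

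Regions were placed on the GENCODE M21 annotation and the GRCm38.p6 genome, whose chromosome lengths hold all region ends. The 10 genes and all gene lists were chosen with earlier results of these data known. Counts of all 55680 regions were fitted with age as the only factor in edgeR 4.0.16 (TMM, quasi-likelihood test, R 4.3.3), with adjusted p under 0.05 as a call. CPM use TMM library sizes, and overlap between ages was judged on log2 CPM with a prior count of 2. Counts were also summed over the regions of each protein-coding gene (10 kb flanks, so neighbours can share regions) and fitted the same way with TMM factors of their own. Named from other lists were up to 3 genes a list and direction, those with the smallest p among called regions. 1 item of the lists is not reported here, and the list counts leave it out. With 3 against 4 samples a two-sided exact permutation test cannot go below p = 0.057, so none was run on single values. Alternatives were DESeq2 1.42.0, limma voom 3.58.1, total-count scaling, loess offsets on abundance or GC content, count filters, a replicate block, each library left out and each pair of aged samples summed.

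The fit was tested on simulated counts for 55680 regions with 200 changed. It recovered 95% of those changed by a log2 fold change of 2 and 47% at 1, and 10.1% of its calls were false. All pairs of same-age libraries differed by more than sampling noise (chi-square per degree of freedom 2.40 to 6.07). Deviations of same-numbered young and aged samples correlated at -0.12, 0.056 and 0.030, so the numbers were not taken as pairs. The p-values measure the spread between samples, of which 2 aged ones share an animal by the design text but not by the study's methods. Of the 46 called regions of the lists, minimap2 2.31 found near-identical copies (80% of the length at 95% identity) for 2, at Itgb5 and Serpina1a, and for none of the 15 regions of the 10 genes. Every count column belonged to 1 labelled sample.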

Additional observations from a re-analysis of the deposited data

Results flagged for a closer look

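Single aged samples stood apart from the other 3 aged samples at 2 of the 15 regions tested. The gap between the sample and its nearest neighbour, divided by the range of the aged samples, exceeded Dixon's 95% critical value. Chance flags about 1 in 20 such groups. In the Col1a1 site at -7286 bp from the start, aged 4 had a log2 CPM of 2.87 where the others had 1.74 to 1.92. In the Col1a1 site 943 bp after the start, aged 2 had a log2 CPM of 1.74 where the others had 2.18 to 2.22.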

How the results depend on the processing

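The count of called regions went from 0 to 1 with total-count scaling (Reln promoter, log2 fold change -0.76, adjusted p = 0.0319), with GC offsets (B9d2 promoter near Tgfb1, 0.52, 0.0118), with the replicate block (Reln promoter, -0.69, 0.0352) and with aged 1 and 4 summed (Reln promoter, -0.69, 0.047), and stayed at 0 under the other alternatives run. The count of called gene sums went from 0 to 1, at Reln each time, with the replicate block (adjusted p = 0.0383), with aged 2 and 4 summed (0.0479) and without aged 4 (0.045), so that leaving out single libraries gave 0 to 1. The median change of the 15 regions was -0.18. It became 0.075 with abundance offsets and -0.41 with the replicate block, and ran from -0.37 (without aged 4) to -0.072 (without aged 1) when single libraries were left out. Signs turned, without any call, for the Col1a1 upstream site (0.075), Lrat (0.090; its sum 0.23), Pdgfrb (0.29; its sum 0.38) and the Reln intron sites at -0.07 (0.46) and -0.23 (0.18) with abundance offsets, for the Reln site at -0.07 with GC offsets (0.044), and for those at 0.20 (-0.33) and 0.40 (-0.0063) with the replicate block. Leaving out single libraries, the Tgfb1 promoter ran from -0.31 to 0.024, Pdgfrb from -0.47 to 0.16, the Reln intron sites at -0.07 from -0.33 to 0.063 and at 0.20 from -0.21 to 0.45, the Tgfb1 sum from -0.17 to 0.027 and the Pdgfrb sum from -0.58 to 0.078, and without a change of sign Lrat ran from -0.39 to -0.071, the Tgfb1 regions at -0.31 from -0.57 to -0.12 and at -0.17 from -0.57 to -0.0091, and the Reln intron sites at -0.23 from -0.47 to -0.00086 and at 0.40 from 0.17 to 0.66. The cause was not tested.

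Over all regions the call count was 3198, of which 42.5% were higher in aged liver. It was 4691 (58.8% higher) with DESeq2, 3474 (15.6%) with total counts, 7592 (74.5%) with GC offsets, 685 (39.3%) with abundance offsets, 1327 with at least 10 counts in every sample, which left 9 of the 15 regions, 962 with aged 1 and 3 summed, 1806 with aged 2 and 3 summed, and 188 to 4230 without single libraries. The sign of a list's median depended on the scaling in 7 of the 9 lists, and total counts moved the median of all regions to -0.15. The replicate block gave 4078 calls; its numbers are not pairs by the labels, and 2 of the 6 numbered samples correlated best with their own number. A threshold of 0.01, gene bodies alone and 50 kb flanks each left 0 of the regions called, a 1000 bp promoter window changed 0 promoter regions, and a prior count of 0.5 left 3 regions with all aged samples lower and 1 higher. Counts were low at the weak sites, such as the Reln intron sites with 4 to 63 counts a sample and Pdgfrb with 5 to 91.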
